A study of Mus musculus with 32 samples.

Results

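The 96 cells described here are the neuronal cells (the study's major group NC) picked from the forebrain of mouse embryos at E10.5 and E11.5 (days of embryonic life). They were chosen by that group and by the organ and day in the cell names, out of 1815 cells with a major group, 1819 cells that the study kept and 1916 cells in the files. No measured level entered this choice, but the study formed its 4 major groups from the activity of transcription factors in these same cells. The series profiled single cells of 8 organs and tissues of C57BL/6J embryos. The embryos of both days are labelled male, no treatment or altered allele is named, and forebrain and hindbrain came from the same 4 embryos, 2 at E10.5 and 2 at E11.5. Each organ was dissected, digested with trypsin and picked cell by cell with a mouth pipette. The region of the forebrain from which a cell was picked is not given in the sources used here. Each embryo counted as 1 replicate, and 108 neuronal cells of the hindbrain of the same embryos were the comparison.

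The forebrain of this age is a sheet of dividing progenitors with the youngest neurons on its outer side. As background, its dorsal part, the pallium, makes glutamatergic neurons through factors such as Emx2, Eomes and Tbr1, and its ventral part, the subpallium, makes neurons that use GABA through the Dlx homeobox factors and the glutamate decarboxylases Gad1 and Gad2. Engrailed and Iroquois factors mark the midbrain-hindbrain border and the hindbrain. Cells that leave the cycle lose Hes and Sox progenitor factors, pass through a step of Delta ligands and proneural factors, and switch on Tubb3, a neuronal tubulin, and Stmn2, a regulator of microtubules in growing axons.

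Levels are given on the scale of the study, log2(TPM/10 + 1), where TPM counts the unique molecular identifiers (UMIs, a tag for each captured molecule) of a gene in every 1000000 that its cell holds. On this scale 1 is 10 TPM, 3 is 70 TPM and 5 is 310 TPM. The 96 cells held 28370 to 771999 UMIs and 2242 to 8672 genes, and in a cell of median depth 1 UMI was worth 7.93 TPM. Of the forebrain cells, 9 came from E10.5 embryo 1, 27 from E10.5 embryo 2 and 30 from each embryo of E11.5. E10.5 embryo 1 stood apart in what was picked: 32 cells are in the file, 30 were kept, and 11 of these were hematopoietic and 10 mesoderm-derived. In 3 of the brain sets the cells numbered 95 and 96 had identical profiles. These were 1 hematopoietic pair of the forebrain and 2 neuronal pairs of the hindbrain, and each pair was counted once. Cell numbers were reused, with 32 of 64 shared between organs and days.

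The 4 marker genes given for these cells, Tubb3, Stmn2, Dlx2 and Gad2, were all measured in the forebrain, but in different sets of cells. Tubb3 reached 1 or more in 95 of the 96 cells and 3 or more in 87 cells. The embryo means of Tubb3 were 4.69 and 6.59 at E10.5 and 7.24 and 6.94 at E11.5. Both embryos of E11.5 were higher than both of E10.5, and the limma test of this difference, 1.45 (SE 0.57), gave an adjusted p of 0.395. Stmn2 divided the cells: 55 were at 3 or more and 41 below, 48 of the 55 were at 5 or more, and 13 cells lay between 2 and 4. Its embryo means were 2.50 and 4.86 at E10.5 and 4.91 and 4.52 at E11.5, which overlapped between the days. Dlx2 was at 3 or more in 39 cells and Gad2 in 26 cells.

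Hematopoietic cells of the same libraries show the level that a gene reached in cells that should lack it. Of the 15 in the forebrain, 10 came from E10.5 embryo 1 (the identical pair counted once), 4 from E10.5 embryo 2, 1 from E11.5 embryo 1 and 0 from E11.5 embryo 2, which holds 21 of the 39 Dlx2 cells. The highest levels, all in the cell of E11.5 embryo 1, were 2.59 for Stmn2, 1.17 for Dlx2, 1.52 for Gad2 and 2.59 for Tbr1. For these genes a level of 3 was therefore read as expression in the forebrain, a choice made after the values were seen. Tubb3 was the exception, with 3 of the 15 cells at 3 or more. In the hindbrain libraries the same level did not separate the cells for Stmn2, because 6 of 7 hematopoietic cells were at 3 or more, up to 4.52. There Stmn2 was read only from 5, which 53 of the 108 neuronal cells reached, against 48 of the 96 forebrain cells.

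**Figure D1:**
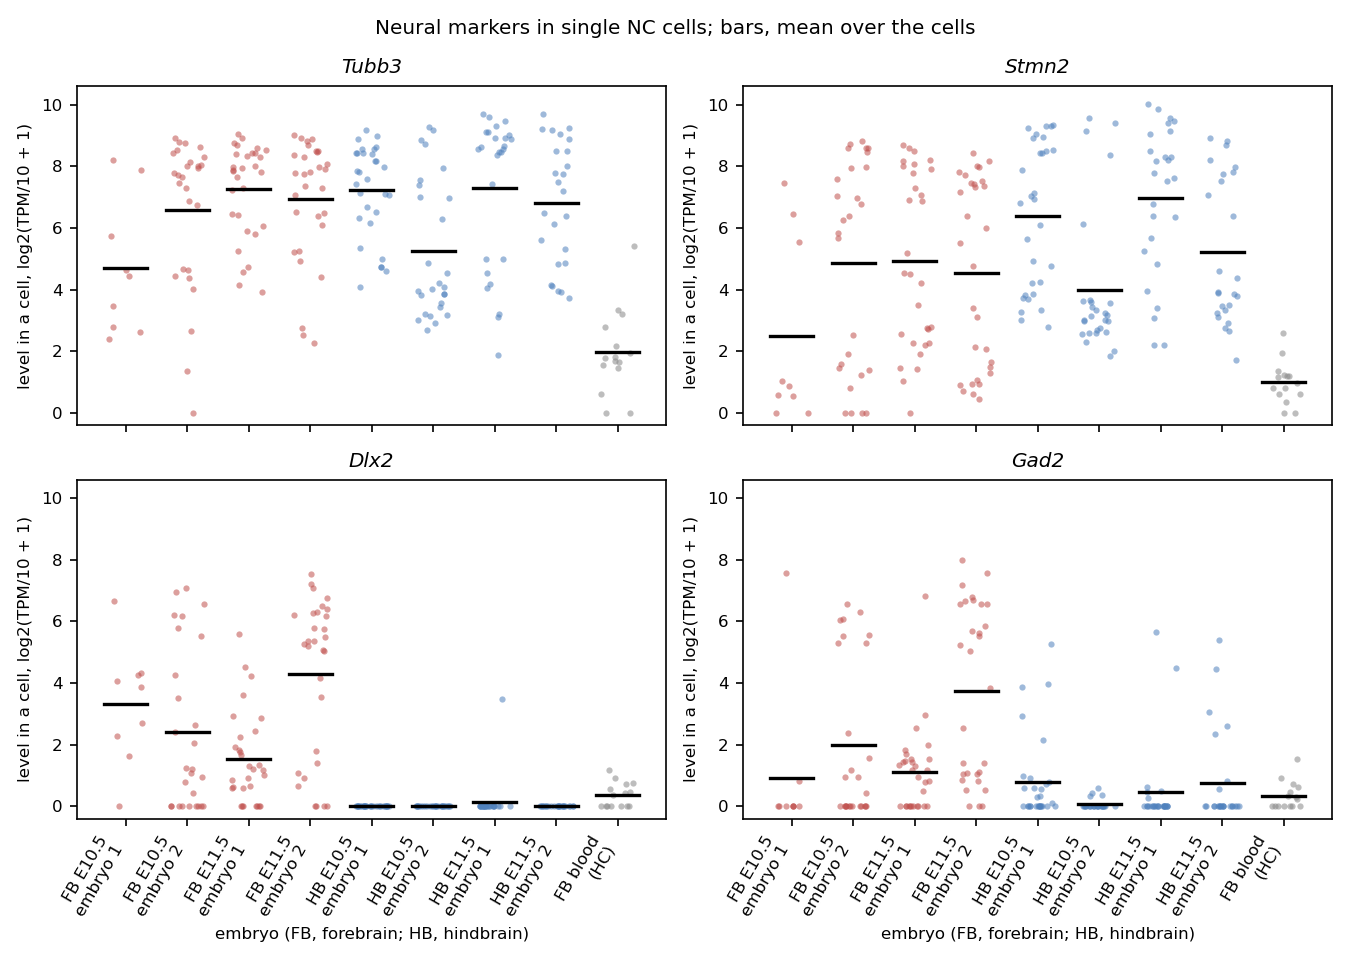
Level of Tubb3, Stmn2, Dlx2 and Gad2 in each neuronal (NC) cell on log2(TPM/10 + 1), by embryo of the forebrain (FB, red) and hindbrain (HB, blue), and in the 15 hematopoietic cells of the forebrain (grey); bars are means over cells. Dlx2 lay at 0 in all but 1 hindbrain cell, and Tubb3 was detected in nearly every neuronal cell.

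Among the forebrain cells, Dlx2 and the cortical factor Tbr1 (T-box brain 1, which marks young glutamatergic neurons) were not found at 3 or more in the same cell. At this level 39 cells had Dlx2 without Tbr1, 28 had Tbr1 without Dlx2, 29 had neither and 0 had both. The count of 0 belongs to the level chosen. At 2 or more 4 cells had both, all in E11.5 embryo 1, and at 1 or more 19 cells had both, 15 of them in that embryo. With each cell thinned to 50000 UMIs, which leaves out 10 shallower cells, 1 of 86 cells had both at 3 or more.

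Many of the Dlx2 cells carried other Dlx genes and enzymes of GABA synthesis. Of the 39 cells, 30 had Dlx1, 28 had Dlx5, 26 had Dlx6os1, 25 had Gad2, 12 had Gad1 and 11 had Dlx6 at 3 or more. Factors of the ventral forebrain lay in the same cells: Six3 in 22, Isl1 (an islet factor of striatal neurons) in 16 and Sp8 in 12. Lhx6 and Lhx8, factors of the medial ganglionic eminence, were at 3 or more in 7 and 4 cells, and Nkx2-1 in 4. Slc32a1, the vesicular GABA transporter, was at 3 or more in 1 cell. Of the 26 cells with Gad2 at 3 or more, 25 had Dlx2 and 21 had Stmn2, and 0 of the 28 Tbr1 cells had Gad2 or Gad1 at that level. Of the 39 Dlx2 cells, 23 had Stmn2 and 16 had not, so the factor was measured on either side of the Stmn2 division.

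The Tbr1 cells carried a glutamatergic set. Of the 28 cells, 24 had Neurod1, 24 had Slc17a6 (the vesicular glutamate transporter VGLUT2), 23 had Nhlh2, 23 had Lhx9, 20 had Eomes, 17 had Emx1 and 16 had Neurod6 at 3 or more. Reln, the secreted protein of the earliest cortical neurons, was at 3 or more in 5, and Lhx5 in 8. Stmn2 was at 3 or more in 25 of the 28. Lhx2, a selector of cortical fate, was at 3 or more in 25 Tbr1 cells, in 24 of the 29 cells with neither gene and in 13 of the 39 Dlx2 cells. Emx2 was at 3 or more in 15, 16 and 3 cells of these sets.

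Many of the 29 cells with neither gene carried genes of dividing progenitors, though not all such genes and not these cells alone. Top2a, a DNA topoisomerase, was at 3 or more in 24 and Fabp7 (a fatty acid binding protein of radial glia) in 21. Pax6 was at this level in 17, Sox9 in 18, Hes1 and Hes5 in 12 each, and Stmn2 in 7. Top2a was at 3 or more in 15 of the 39 Dlx2 cells and 12 of the 28 Tbr1 cells. Sox2 was at this level in 14 of the 29 cells, 18 Dlx2 cells and 5 Tbr1 cells. In the same order Sox9 was in 18, 17 and 8, Nes in 20, 20 and 9, and Notch1 in 9, 12 and 6. Slc1a3, Ednrb and Id1, also of the progenitor list, were at 3 or more in 2, 3 and 3 of the 29. Median depth was 130586 UMIs in the Dlx2 cells, 93670.5 in the Tbr1 cells and 138684 in the remaining cells. These sets were cut from measured levels after the data were seen, so their gene counts are a description and no test was made between them.

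**Figure D2:**
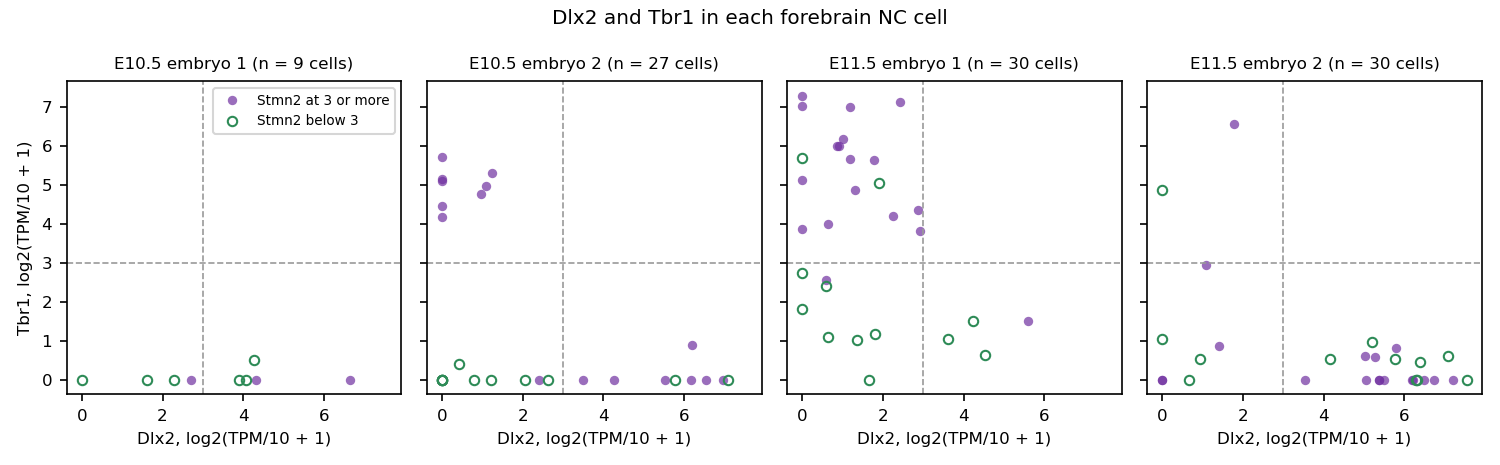
Tbr1 against Dlx2 in each of the 96 forebrain neuronal cells, both on log2(TPM/10 + 1), with 1 panel per embryo; filled points are cells with Stmn2 at 3 or more and dashed lines mark 3. No cell lies above both lines, 18 of 30 cells of E11.5 embryo 1 lie in the Tbr1 field and 21 of 30 cells of E11.5 embryo 2 lie in the Dlx2 field.

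The promoters of the genes that divide the cells are shown because Dlx1, Dlx2 and Gad2 moved together over cells while Tbr1 lay in other cells. The Dlx genes sit in pairs. Dlx1 (chr2:71528113-71533981) and Dlx2 (chr2:71543408-71546754, minus strand) face each other with 9426 bases between them, and Dlx6 (chr6:6863334-6868568) and Dlx5 (chr6:6877805-6882085) lie 9236 bases apart. All positions are of GRCm38 (mm10), from GENCODE M21. The 250 bases before the RefSeq start on GRCm38 were chr2:71529195-71529444 for Dlx1, chr2:71546755-71547004 on the minus strand for Dlx2, chr2:22622077-22622326 for Gad2 and chr2:61804203-61804452 for Tbr1, with Dlx1, Gad2 and Tbr1 on the plus strand. For Dlx1, Gad2 and Tbr1 the GENCODE span of the gene begins before or within this window. Capitals mark TAATTA, the core that homeodomain factors can bind, and CANNTG, the E-box core, on either strand.
Dlx1: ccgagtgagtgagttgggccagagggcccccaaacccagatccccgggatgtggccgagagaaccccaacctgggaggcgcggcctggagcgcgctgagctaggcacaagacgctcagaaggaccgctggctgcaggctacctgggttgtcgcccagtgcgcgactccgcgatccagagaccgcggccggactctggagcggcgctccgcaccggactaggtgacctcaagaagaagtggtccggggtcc
Dlx2: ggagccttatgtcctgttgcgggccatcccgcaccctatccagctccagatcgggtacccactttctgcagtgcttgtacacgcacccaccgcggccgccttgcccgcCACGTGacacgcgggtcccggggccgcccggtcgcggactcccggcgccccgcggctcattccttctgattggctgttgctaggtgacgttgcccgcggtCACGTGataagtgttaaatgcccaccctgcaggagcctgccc
Gad2: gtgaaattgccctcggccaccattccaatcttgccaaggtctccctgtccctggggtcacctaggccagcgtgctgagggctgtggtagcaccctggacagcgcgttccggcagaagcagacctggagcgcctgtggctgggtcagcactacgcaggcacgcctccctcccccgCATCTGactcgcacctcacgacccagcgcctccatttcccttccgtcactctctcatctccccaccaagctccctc
Tbr1: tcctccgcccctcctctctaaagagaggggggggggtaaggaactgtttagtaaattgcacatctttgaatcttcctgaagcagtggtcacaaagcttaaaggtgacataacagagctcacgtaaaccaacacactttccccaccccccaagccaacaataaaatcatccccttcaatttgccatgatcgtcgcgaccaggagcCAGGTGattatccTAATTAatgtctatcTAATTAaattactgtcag
TAATTA was found in 2 places before Tbr1 and in none of the other windows, and 4.84% of 32851 RefSeq windows of the same length hold it. CANNTG was found in 2 places before Dlx2, 1 before Gad2, 1 before Tbr1 and none before Dlx1, and 66.2% of all windows hold it. A match of letters shows no binding, and a window without a match says nothing about a factor.

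Over the 96 cells, the 10 genes whose level followed Dlx2 most closely were Dlx1 (Spearman rho 0.67), Dlx5 (0.67), Dlx1as (0.60), Gad2 (0.55), Abracl (0.55), Dlx6 (0.52), Meis1 (0.50), Six3 (0.50), Dlx6os1 (0.50) and Gad1 (0.48). The lowest were Lhx2 (-0.59), Nhlh2 (-0.57) and Emx2 (-0.56). Dlx1as overlaps Dlx1 and Dlx6os1 overlaps Dlx6 on the opposite strand, and whether strand was used in counting is not given in the sources used here, so reads of these partners cannot be told apart. With Stmn2 the closest were Tmsb10 (0.83), Tuba1a (0.79), Rtn1 (0.78), Crmp1 (0.78), Mllt11 (0.77), Stmn3 (0.76), Tubb3 (0.75), Ftl1 (0.74), Map1b (0.74) and Tagln3 (0.74), most of them parts of the cytoskeleton or proteins that bind it. The cells of an embryo share a library, and rho with the UMI total was 0.05 for Dlx2 and -0.40 for Stmn2, so these values describe the 96 cells and carry no p.

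The shares of the Dlx2 and Tbr1 cells differed between embryos of the same day. Dlx2 was at 3 or more in 5 of 9 cells of E10.5 embryo 1, 9 of 27 of E10.5 embryo 2, 4 of 30 of E11.5 embryo 1 and 21 of 30 of E11.5 embryo 2. Tbr1 was at 3 or more in 0 of 9, 8 of 27, 18 of 30 and 2 of 30 cells. The 2 embryos of E11.5 thus lay at opposite ends for Dlx2, and the days overlapped for both genes. Gad2 was at 3 or more in 1 of 9, 8 of 27, 1 of 30 and 16 of 30 cells, so that of the E10.5 embryos embryo 1 had the larger share for Dlx2 and embryo 2 for Gad2.

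The same split ran through both gene lists. Of the 20 genes of the Dlx and GABAergic list, 10 were higher by 1 or more in E11.5 embryo 2 than in embryo 1, where 0.593% of all 13152 genes were. Dlx2 had a mean of 4.28 in embryo 2 and 1.53 in embryo 1, Gad2 3.73 and 1.11, and Dlx5 3.12 and 0.89. Of the 16 pallial and cortical genes, 11 were higher by 1 or more in embryo 1, where 2.42% of all genes were. Neurod6, a factor of cortical glutamatergic neurons, had a mean of 3.53 in embryo 1 and 0.12 in embryo 2, Tbr1 3.88 and 0.73, and Neurod1 3.91 and 0.81. The comparison is of 1 embryo with 1 embryo and has no replicate check. The part of the forebrain that was picked and the embryo cannot be told apart here.

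**Figure D3:**
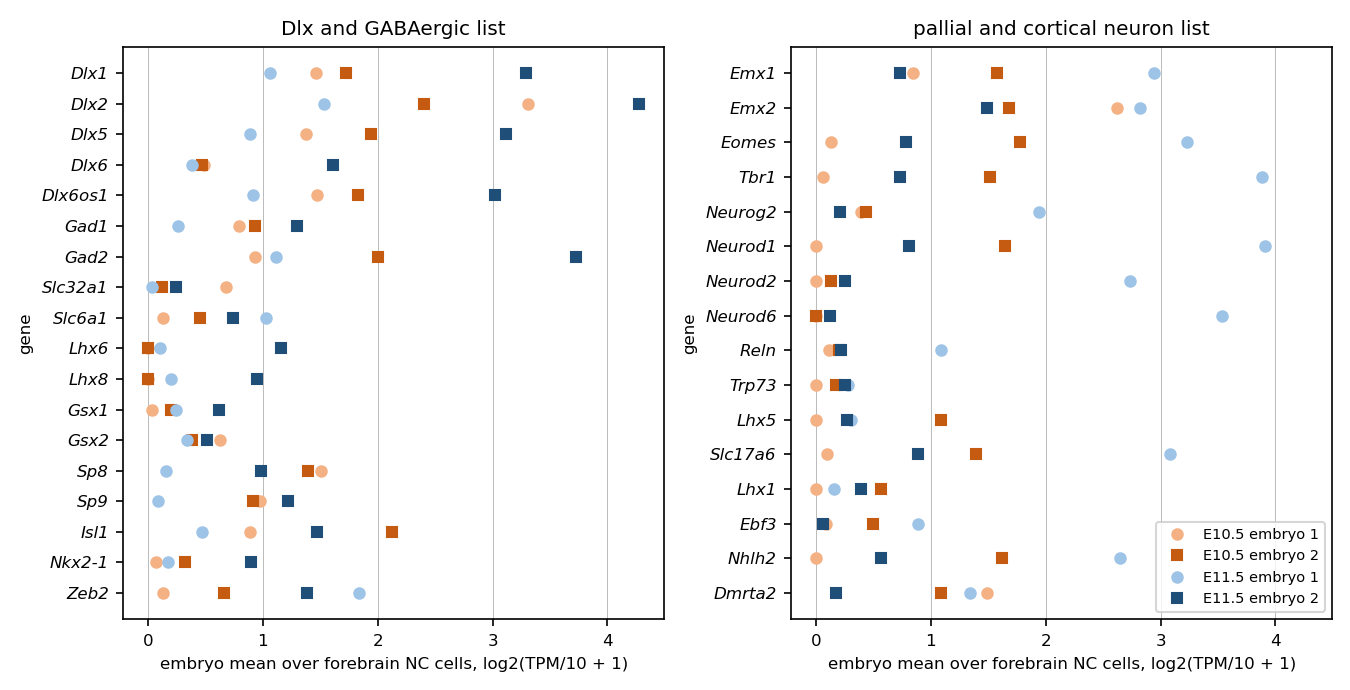
Embryo means over forebrain neuronal cells, on log2(TPM/10 + 1), for 18 of the 20 genes of the Dlx and GABAergic list (left) and the 16 pallial and cortical genes (right), with 1 symbol per embryo. E11.5 embryo 2 (dark blue squares) lies furthest right for most Dlx genes, and E11.5 embryo 1 (light blue circles) for most pallial genes, such as Neurod6 at 3.53 against 0.12.

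Most cells with Stmn2 below 3 were in cycle by their genes. A cell was called proliferative at a mean of 2 or more over the genes of G1/S or of G2/M, and 36 of the 41 cells below 3 on Stmn2 were (87.8%), as against 12 of the 55 cells at 3 or more (21.8%). The share of all neuronal cells was 7 of 9, 13 of 27, 13 of 30 and 15 of 30 in the 4 forebrain embryos. It was 48 of 96 (50%, 95% Clopper-Pearson interval 39.6 to 60.4) in the forebrain and 68 of 108 (63.0%, 53.1 to 72.1) in the hindbrain, and these intervals cover counting error only. Of the forebrain cells, 37 had the progenitor factor Sox2 at 3 or more, 12 of them among the Stmn2 cells.

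The comparison with the hindbrain asked what sets these cells apart from neuronal cells of the same embryos and days. Of 13152 genes tested, 88 passed the limma test (adjusted p under 0.05 and a difference of at least 1), 26 higher and 62 lower in the forebrain, which is 0.669% of genes, 0.198% higher and 0.471% lower. The embryo means of 6.11% of genes did not overlap between the organs. The genes higher in the forebrain included the lincRNA 3110039M20Rik, Dlx1, Dlx2, Dlx5, Emx2 and Lhx2. Those lower included Crabp1, neurofilaments and engrailed and Iroquois factors. The number rests on all 8 embryo means: leaving out any 1 embryo from both organs gave 0 calls in the same test, with 1052 to 1802 genes at an unadjusted p under 0.05. Leaving out only the 9 forebrain cells of E10.5 embryo 1 gave 18 calls, 17 of them among the 88, and edgeR and DESeq2 on summed UMIs gave 137 and 425.

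The lincRNA 3110039M20Rik had the largest positive difference of the genes named here. Its embryo means were 5.03, 3.83, 2.87 and 3.15 in the forebrain (E10.5 embryos 1 and 2, then E11.5 embryos 1 and 2, the order used from here on) and 0, 0, 0.17 and 0 in the hindbrain. Every forebrain embryo was far above every hindbrain embryo, with a difference of 3.68 (SE 0.28) and a limma adjusted p of 1.3e-05.

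Dlx2 had embryo means of 3.31, 2.40, 1.53 and 4.28 in the forebrain and 0, 0, 0.13 and 0 in the hindbrain. The groups did not overlap, and the difference of 2.85 (SE 0.45) passed the limma test at an adjusted p of 0.0066. The hindbrain value came from 1 cell of E11.5 embryo 1, with 29449 UMIs, which held 3 UMIs of Dlx2. Dlx1, with 1.46, 1.72, 1.06 and 3.29, and Dlx5, with 1.37, 1.94, 0.89 and 3.12, were at 0 in all 4 hindbrain means. They differed by 1.88 (SE 0.36, adjusted p 0.025) and 1.83 (SE 0.37, adjusted p 0.030). Differences from a group at 0 depend on the 1 added before the logarithm and are no fold. A gene at 0 in every mean of 1 organ, here and below, passed the filter through the other organ alone. Its difference could point only 1 way.

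Gad2 was measured in the hindbrain as well. Its means were 0.93, 2.01, 1.11 and 3.73 in the forebrain and 0.80, 0.06, 0.46 and 0.77 in the hindbrain. The forebrain embryos were all higher, with little between the nearest pair, and the difference of 1.42 (SE 0.45) had a limma adjusted p of 0.194. With the embryo as a replicate block it was 0.043, and over all alternatives it ran from 0.043 to 0.61. Of the 20 genes in the Dlx and GABAergic list, 5 were higher, against 0.198% of all genes, among them Dlx1, Dlx2, Dlx5 and Dlx6os1. Of the list 0 were lower and 15 did not pass, with a median difference of 0.42 against -0.05 for all genes. Isl1, a list member that hindbrain motor neurons also express, had means of 0.89, 2.12, 0.47 and 1.47 against 2.05, 1.39, 1.76 and 0.40.

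Among the factors that pattern the forebrain, 15 of 18 passed the filter. Of these 15, 7 were higher, against 0.198% of all genes, among them Lhx2, Emx2, Fezf2, Nr2e1 and Dmrta2. The 15 had a median difference of 1.01. Emx2, a factor of the dorsal cortex, had means of 2.62, 1.68, 2.82 and 1.49 and was at 0 in each hindbrain mean (difference 2.15, SE 0.30, adjusted p 0.0044). Lhx2 had 3.18, 3.81, 5.38 and 2.44 against 0.50, 0.45, 1.24 and 2.33, so that the nearest embryos were close (2.57, SE 0.48, adjusted p 0.021). Otx2, a factor of forebrain and midbrain, had 1.29, 0.61, 0.48 and 0.56 against 0.46, 3.23, 1.11 and 1.99 and did not pass. Rax, a factor of the eye field and hypothalamus, had no UMI in these means, and Six6 and Hesx1 stayed under the filter. Of the 16 pallial and cortical genes, Emx2 and Dmrta2 were higher and Ebf3 was lower, against 0.198% and 0.471% of all genes. Tbr1 and Eomes were at or near 0 in the hindbrain and differed by 1.54 (SE 0.50) and 1.48 (SE 0.43), with adjusted p of 0.208 and 0.153.

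Other genes of the 12 with the largest positive differences were AI854517 (2.21), Dlx6os1 (1.81), Efnb1 (1.80) and Shisa2 (1.74). Efnb1 encodes an ephrin ligand, and its means were 3.76, 2.67, 3.15 and 2.30 against 1.33, 1.39, 0.79 and 1.19. Shisa2, an inhibitor of Wnt and FGF receptors, had 1.80, 2.48, 2.02 and 1.30 against 0.22, 0.23, 0.11 and 0.06. Every forebrain embryo was above every hindbrain embryo in both. Further down the 26 were Nr2f1 (1.65), an orphan nuclear receptor, Bcl11a (1.46), Sox6 (1.37) and Sox5 (1.03), factors known from cortical neurons and their progenitors.

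Crabp1, which binds retinoic acid in the cytoplasm, was the gene with the largest difference of all. Its means were 1.38, 1.44, 0.49 and 0.09 in the forebrain and 6.77, 5.44, 6.42 and 5.0 in the hindbrain (difference -5.06, SE 0.34, adjusted p 4.1e-06). Sncg, a synuclein of sensory and motor neurons, was at 0 in all 4 forebrain means and at 4.14, 3.17, 3.39 and 1.96 in the hindbrain (-3.16, SE 0.32). The neurofilament genes Nefm and Nefl, of large axons, were lower by differences of -3.33 (SE 0.55) and -3.03 (SE 0.51). These were the 2 of 16 genes of the neuronal cytoskeleton list that passed, against 0.669% of all genes. Of the 16, 0 had a positive difference.

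**Figure D4:**
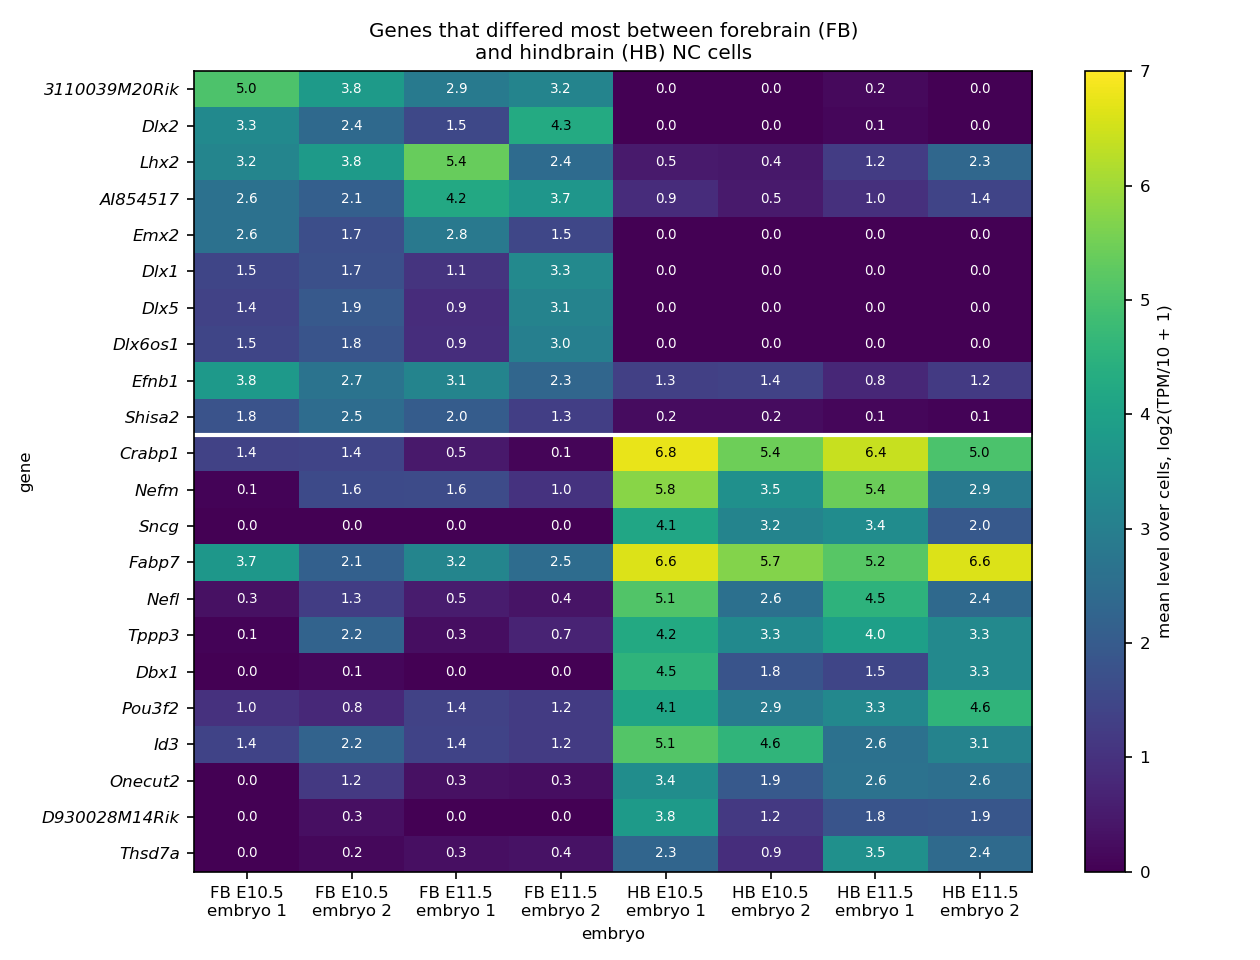
Embryo means, on log2(TPM/10 + 1), of 10 of the 12 genes with the largest positive (above the white line) and the 12 with the largest negative (below it) difference between forebrain (FB) and hindbrain (HB) neuronal cells among genes that passed the test and did not overlap. 3110039M20Rik spans 2.87 to 5.03 in the forebrain and 0 to 0.17 in the hindbrain, and Crabp1 spans 0.09 to 1.44 against 5.0 to 6.77.

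Regional genes of the border with the midbrain and of the hindbrain were lower in the forebrain. Of 23 in the list, 16 passed the filter. Of these 16, 6 were lower, against 0.471% of all genes: En1, En2, Irx3, Irx5, Mab21l2 and Crabp1. En1 and En2 were at 0 in all 4 forebrain means and at 2.75, 1.90, 2.47 and 1.13 and at 1.84, 1.54, 1.27 and 1.21 in the hindbrain. Both passed the filter through hindbrain cells alone and could only come out lower. The same nearly holds for Irx5, at most 0.011 in a forebrain mean. The Hox genes Hoxa2, Hoxa3, Hoxb1, Hoxb2, Hoxb3 and Hoxb4 stayed under the filter in both organs, with no embryo mean over 0.11. The hindbrain cells used for comparison thus held almost none of these Hox genes. The study's cell names also use metencephalon for the hindbrain. Whether these cells stand for the hindbrain as a whole was not tested. Of the 14 tested genes of forebrain signalling, Fgf17 (-1.15) and its feedback inhibitor Spry1 (-1.52) were lower in the forebrain and none was higher. Over all genes 0.471% were lower.

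Progenitor genes differed in their members. Of 15, Fabp7, Id1 and Id3 were lower, against 0.471% of all genes, and none was higher, with a median difference of -0.07. Fabp7 had 3.71, 2.15, 3.18 and 2.48 against 6.62, 5.69, 5.19 and 6.64 (-3.15, SE 0.38, adjusted p 0.0014). Id3, a target of BMP signalling, had 1.4, 2.23, 1.42 and 1.22 against 5.12, 4.57, 2.60 and 3.12 (-2.29, SE 0.27, adjusted p 0.0013). The groups did not overlap in either gene. Pax6, a factor of cortical progenitors and eye, was higher by 1.91 (SE 0.43) and missed the threshold at an adjusted p of 0.054, and its groups overlapped at the lowest forebrain embryo. Sox2 had 2.10, 1.67, 2.30 and 2.52 against 2.31, 1.69, 1.0 and 1.99 and did not pass.

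The remaining genes of the 12 with the largest negative differences were Tppp3 (-2.89), Dbx1 (-2.75), Pou3f2 (-2.61), Onecut2 (-2.22), D930028M14Rik (-2.09) and Thsd7a (-2.09). Dbx1, a homeobox factor of interneuron progenitors in the hindbrain and spinal cord, was at 0, 0.13, 0 and 0 against 4.55, 1.82, 1.48 and 3.30. Pou3f2, a POU factor of many neuron types, had 0.99, 0.82, 1.38 and 1.23 against 4.07, 2.92, 3.28 and 4.57. The neuronal markers themselves did not pass. Tubb3 differed by -0.28 (SE 0.40, adjusted p 0.85) and Stmn2 by -1.43 (SE 0.54, adjusted p 0.299). For Stmn2 the hematopoietic level of the hindbrain libraries, above, moved with the organ, and its part in the value was not tested.

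From E10.5 to E11.5 no gene of the forebrain cells passed the limma test (0 of 13152, or 0% of genes). At an unadjusted p under 0.05 there were 1454 genes, edgeR called 0 and DESeq2 called 49, 32 higher and 17 lower. The balance was the opposite in limma on log2(TPM + 1), with 5 higher and 26 lower, and under the stricter filter, with 4 higher and 12 lower. The lowest adjusted p, 0.064, was shared by Afp, B2m, Hbb-bh1, Malat1 and Gpm6b. With 2 embryos a day an exact two-sided permutation test of 1 gene cannot go below 0.333, and 37.4% of genes had embryo means that did not overlap between the days. The values below are thus descriptions of 2 embryos against 2.

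The genes of the step from progenitor to neuron lay higher at E11.5. All 12 genes of the proneural and Delta list had a positive difference, 6 of them of 1 or more, and the median was 0.87 against -0.02 for all genes. Gadd45g, a stress and growth arrest gene expressed at neuronal birth, had means of 0.83 and 1.85 at E10.5 and 3.81 and 4.22 at E11.5 (2.68, SE 0.51, adjusted p 0.116). It passed on log2(TPM + 1), at 0.037, and under the stricter filter, at 0.034, and ranged from 0.034 to 0.91 over the alternatives. Dll1, a Notch ligand, had 0.75 and 1.34, then 2.93 and 2.17. Hes6, an antagonist of Hes1, had 2.24 and 3.86, then 4.33 and 4.66. In all 3 genes both E11.5 embryos were above both E10.5 embryos, as for 6 of the 12 in all, a share not far from the 37.4% of all genes.

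Neuronal genes took the same direction in the means of 2 embryos, but not in every embryo. Of the 16 cytoskeleton genes 7 were higher by 1 or more at E11.5 and none was lower by as much (median 0.76), and of the 15 genes of RNA binding, synapse and excitability 6 were (median 0.72). Over all genes 161 were higher and 243 were lower by 1 or more. Elavl3, a neuronal RNA-binding protein, had 1.71 and 2.78, then 4.83 and 3.37 (1.85, SE 0.52, adjusted p 0.288). Nsg2, a neuronal vesicle protein, had 0.28 and 0.60, then 3.61 and 2.34 (2.53, adjusted p 0.084), and Gpm6b, a neural membrane protein, 1.37 and 1.62, then 3.48 and 3.54 (2.02, adjusted p 0.064). Both passed in 5 alternatives each. Map2 of dendrites had 1.45 and 3.31, then 4.61 and 3.61.

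Some progenitor genes and the genes of G1/S lay lower. Of the 15 progenitor genes 5 had a positive difference, 1 of 1 or more, and 3 were lower by 1 or more, with a median of -0.29. The list averaged 2.50 and 1.66 at E10.5 and 1.83 and 1.62 at E11.5, so the embryos overlapped. Pax6 had 4.77 and 2.11 at E10.5 and 1.19 and 0.81 at E11.5 (-2.44, SE 0.61, adjusted p 0.229), and Hes1, the Notch target of progenitors, 3.05 and 1.79, then 1.23 and 0.41 (-1.60, SE 0.44, adjusted p 0.278). Neither gene overlapped between the days. Fezf1, a zinc finger factor of the early forebrain, had 1.63 and 1.48, then 0.54 and 0.32 (-1.13, SE 0.21, adjusted p 0.097). The 43 genes of G1/S had a median difference of -0.67, 11 of them lower by 1 or more. Of these 43 genes 33 did not overlap, against 37.4% of all genes. The G1/S averages were 3.09 and 2.10, then 1.81 and 1.84, with the largest gap to E10.5 embryo 1 (9 cells). Of the 54 genes of G2/M 13 had a positive difference and 1 was lower by 1 or more, with a median of -0.26. Not every progenitor gene moved so: Hes5 had 1.4 and 0.40, then 2.27 and 1.85, and Sox2 2.10 and 1.67, then 2.30 and 2.52.

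The Dlx list and the pallial list did not separate the days. Dlx2 differed by 0.05 (SE 0.63) and Gad2 by 0.95 (SE 0.64), with adjusted p of 1 and 0.61, and the embryos of E11.5 enclosed those of E10.5 in Dlx2. The median of the 20 Dlx and GABAergic genes was 0.33, and that of the 16 pallial genes 0.65, with 6 higher by 1 or more through E11.5 embryo 1. Without the 9 cells of E10.5 embryo 1, 1 gene passed between the days.

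**Figure D5:**
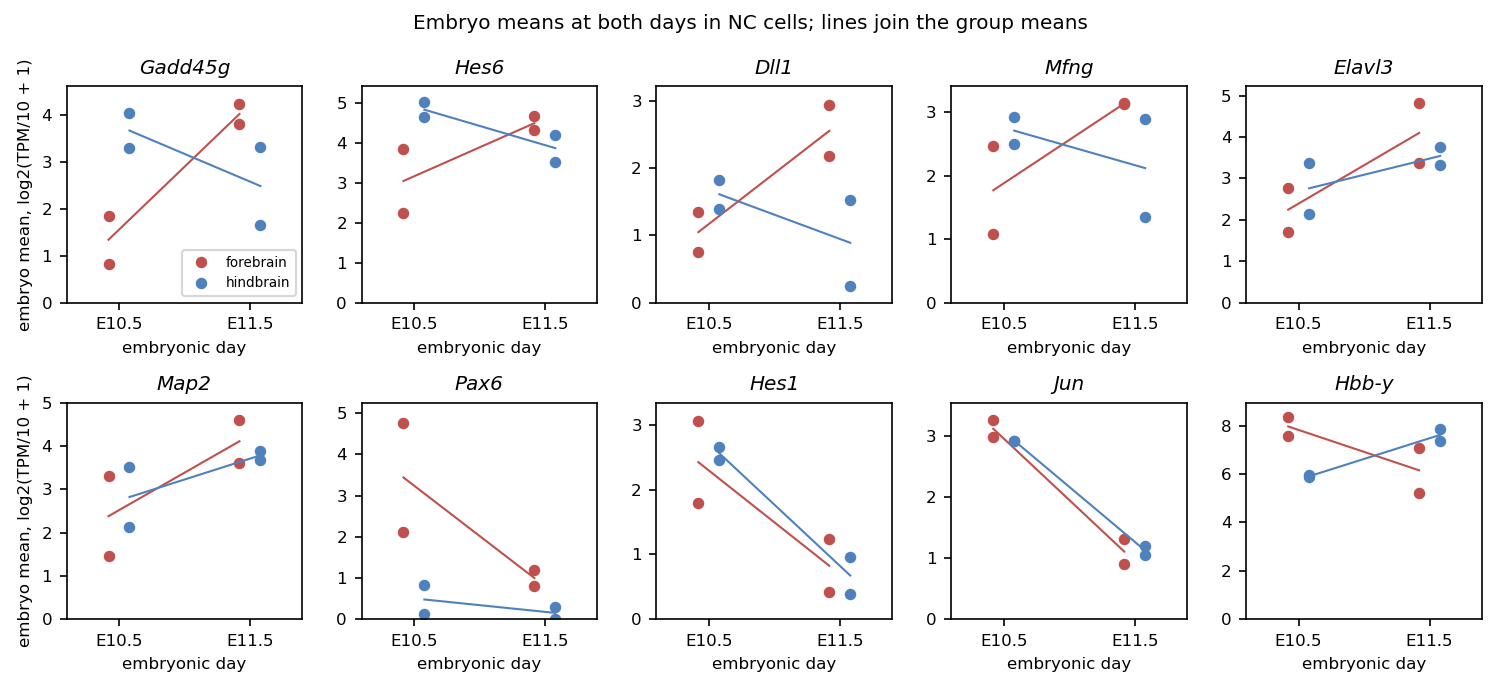
Embryo means at E10.5 and E11.5 in neuronal cells of the forebrain (red) and hindbrain (blue) on log2(TPM/10 + 1), with lines joining the means of 2 embryos. In the forebrain Gadd45g lies at 0.83 and 1.85 at E10.5 and at 3.81 and 4.22 at E11.5, while Pax6, Hes1 and Jun lie lower at E11.5, and none passed the test.

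The change over the day was set against that of the hindbrain. No gene passed the limma test of this difference (0 of 13152, or 0% of genes, with 620 at an unadjusted p under 0.05, 0 by edgeR and 12 by DESeq2). All 12 proneural and Delta genes had a more positive change in the forebrain (median 1.23 against 0.06 for all genes), and in the hindbrain itself 2 of the 12 had a positive change. Gadd45g had 4.04 and 3.28, then 1.65 and 3.32 in the hindbrain, and its difference in change was 3.86 with an adjusted p of 0.23. With the embryo as a replicate block 3 genes passed, Gadd45g at an adjusted p of 0.043 and the embryonic globins Hba-x and Hbb-y, whose change was the more negative in the forebrain. Over the alternatives the adjusted p of Gadd45g ran from 0.041 to 1.

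Blood RNA and handling genes moved with these groups. Summed over 11 blood markers, the median of a forebrain neuronal cell was 3323, 6882, 1934 and 591 TPM in the 4 embryos, and that of a hindbrain cell 1171, 1064, 1913 and 3202 TPM, so the order of the days was opposite in the organs. Hematopoietic cells had medians of 49919 (forebrain) and 245077 TPM (hindbrain). In the day comparison 8 of 9 tested blood markers and 8 of 9 tested stress genes had means that did not overlap, against 37.4% of all genes. All of these were lower at E11.5, and Jun went from 2.98 and 3.27 to 1.31 and 0.90. Between organs 0 of 9 in both lists passed, where 0.669% of all genes did. The 10 mesenchyme markers summed to medians of 129, 46.5, 38.9 and 15.3 TPM in the forebrain and 0 to 5.40 TPM in the hindbrain. All 10 had a positive difference, up to 0.77, and none passed the call rule. Of the 7 neural crest and Schwann cell markers 3 were tested, and Tfap2b was lower in the forebrain (-2.09). Of the 6 endothelial markers 3 were tested, and none passed between organs or days. Averaged over these 3, the forebrain embryo means were 0.14, 0.18, 0.29 and 0.08. Summed over the 6, a forebrain cell held at most 151 TPM, with a median of 0. Among the 6, Cdh5, Kdr and Tie1 stayed at or below 0.04 in the forebrain means. The part of these markers in any comparison was not tested.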

How the data were processed

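Single cells were sequenced by a modified STRT protocol with UMIs, as the study's methods state, while the labels name a modified Smart-seq2 and sorting. Per the submitters' processing notes, CASAVA 1.8, TopHat2 2.0.12, HTSeq (version not given in the sources used here) and mm10 were used. The authors counted uniquely mapped reads, removed duplicate UMIs, dropped cells with fewer than 2000 genes and deposited "TPM", which is CPM of UMIs with no gene length. Divided by the step of their cell, 100% of non-zero values were whole UMIs (tolerance 0.1). Major groups came from the study's cell table, which was built on regulon activity. Cell names gave the embryo. Doublets were not called, since cells were picked singly.

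The mean of log2(TPM/10 + 1) over the cells of an embryo (at least 3) was the unit. The 8 means in 4 groups of 2 were fitted with limma 3.58.1 (trend, R 4.3.3) for genes at 1 or more in at least 3 cells, and p-values were adjusted over all 13152 genes by Benjamini-Hochberg. The comparisons were E11.5 against E10.5 in the forebrain, forebrain against hindbrain, and the difference in change between the organs. Calls needed an adjusted p under 0.05 and a difference of at least 1. The step was tested on simulated data. edgeR 4.0.16 and DESeq2 1.42.0 on summed recovered UMIs were alternatives. Other alternatives were log2(TPM + 1), no filter, a stricter filter, thinning, weights by cells, added E9.5 embryos, the replicate block, each embryo left out and Stmn2 subsets. Share intervals cover counting error only.

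Named genes were the 12 called genes with the largest positive and the 12 with the largest negative difference whose embryo means did not overlap, the 10 called with the largest difference in change (none was), the list members, and the 10 genes with the highest Spearman rho with Dlx2 and with Stmn2. Day genes outside these (Afp, B2m, Hbb-bh1, Malat1, Gpm6b, Nsg2), Bcl11a, Sox5, Sox6 and Nr2f1 were chosen after their values were seen. Some genes that the rule names are not reported here. The cells and lists were chosen with earlier results of these data known. Same numbers stood for the same embryo by the methods, yet deviations of same-numbered means had r of -0.226 at E10.5 and -0.112 at E11.5. Positions came from GENCODE M21 and promoter windows from RefSeq, both on GRCm38.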

Additional observations from a re-analysis of the deposited data

How the results depend on the processing

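With 2 embryos a day, the number of genes that passed moved widely between settings, and the cause of each change below was not tested. For forebrain against hindbrain (88 genes, 26 higher), the count was 239 (52 higher) on log2(TPM + 1), 9 (4 higher) with no gene filter, 137 (49 higher) with edgeR, 425 (158 higher) with DESeq2, 0 in cells below 3 on Stmn2, 8 in cells at 3 or more, and 0 with each embryo left out. It was 107 with the replicate block, 86 of them shared, and 18 without the forebrain cells of E10.5 embryo 1. The 24 genes named for this comparison passed in 274 of 456 fits, and their constant direction is largely fixed by how they were chosen. For E11.5 against E10.5 (0 genes), the count was 31 (5 higher) on log2(TPM + 1), 16 (4 higher) with the stricter filter, 2 thinned, 5 weighted, 9 with E9.5 embryos added, 49 (32 higher) with DESeq2, 0 with the replicate block and 0 with each embryo left out, and 1 without the forebrain cells of E10.5 embryo 1. For the difference in change (0 genes), it was 2 with E9.5 embryos added, 3 with the replicate block, 12 with DESeq2 and 0 with each embryo left out. The replicate block changed no call of these 24 genes. Of 20 other results followed through the settings it changed 2, Gad2 between organs and Gadd45g in the difference in change. The list members outside these were not followed one by one. Chosen after seeing the data, cells below 5 on Stmn2 gave 11 genes for the day, 1 for the difference in change, and cells at 5 or more gave 1 for the day. Embryo numbers crossed in the hindbrain, also added, gave 127 genes between organs and 4 for the difference in change. Stmn2 between organs passed in 2 added settings, with adjusted p of 0.011 (crossed) and 0.0054 (cells below 5, a choice made on Stmn2 itself) in a range of 0.0054 to 0.92.

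Shares of cells at 1 or more moved with the level. At 3 or more (added), Tubb3 at E10.5 was at 83.3%, Stmn2 at 52.8% (also at 5 or more), and Dlx2 at 38.9%, and at E11.5 Stmn2 was at 60% (48.3% at 5 or more), Dlx2 at 41.7% and Gad2 at 28.3%. At E11.5 at least 1 UMI gave 98.3% for Stmn2, 81.7% for Dlx2 and 76.7% for Gad2, and a level of 2 gave 75.0%, 48.3% and 33.3%. With 1 embryo of the day left out, the shares at E10.5 ran from 96.3% to 100% for Tubb3, 44.4% to 81.5% for Stmn2, 55.6% to 88.9% for Dlx2 and 11.1% to 40.7% for Gad2. At E11.5 they ran from 80.0% to 96.7% for Stmn2, 56.7% to 80.0% for Dlx2 and 50% to 76.7% for Gad2. Depth limits low genes, since 1 UMI in a cell of median depth is close to the level of 1.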
